A study of Mus musculus with 8 samples.

Results

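The neuronal nicotinic acetylcholine receptor subunits are the proteins from which ligand-gated cation channels for acetylcholine are built in neurons. The genes described are Chrna2, Chrna3, Chrna4, Chrna5, Chrna6, Chrna7, Chrnb2, Chrnb3 and Chrnb4, which are 9 of the 55341 genes in the deposited count files. They were picked by symbol, but the family was selected on measured values, since its PTU+TH against PTU values in these same libraries were known when it was chosen. For the 9 subunits that contrast is therefore given as a description, without p-values. Where a subunit is said to be called, this reports its place in the fit over all genes and is no independent evidence of a change.

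The libraries came from 8 mice, with 1 library for each individual cortex. Nuclei of cortical GABAergic neurons, the inhibitory neurons of the cortex, carried a fluorescent protein from a Cre/loxP-dependent transgene and were sorted, and their RNA was sequenced after SMART-Seq v4 amplification. Every mouse was hypothyroid, because its mother had been given propyl-thio-uracil (PTU), a blocker of thyroid hormone synthesis, during gestation. Mice 9 to 12 (PTU, n = 4) received nothing further. Mice 13 to 16 (PTU+TH, n = 4) also received thyroid hormone (TH) by intraperitoneal injection, 24 h before their brains were collected. GEO's labels call the hypothyroid mice juvenile and give neither an age in days nor the sex, strain, litter or Cre driver. There was no euthyroid group, so no level below is a normal level.

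Each nicotinic receptor is a ring of subunits around a cation channel that opens when acetylcholine or nicotine binds. The alpha7 subunit forms rings of its own kind, whereas alpha2, alpha3, alpha4 and alpha6 pair with beta2 or beta4, and alpha5 and beta3 join such rings as accessory subunits that do not complete an agonist site by themselves. In the cortex acetylcholine arrives largely from the basal forebrain, and nicotinic responses are known above all from interneurons outside the fast-spiking parvalbumin class. Chrna5, Chrna3 and Chrnb4 lie side by side in the genome and are used together in autonomic ganglia and the medial habenula.

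Chrna5 averaged 1.06 ± 0.495 in the PTU libraries, against 4.69 ± 0.615 in the PTU+TH libraries, in CPM (the counts for every 1 M counts of the library, after correction for composition), and its neighbour Chrna3 averaged 3.88 ± 1.17 and 7.71 ± 1.36 CPM (SD, n = 4 each, here and below). The more abundant subunits Chrna7, Chrna4 and Chrnb2 differed by less than the spread between libraries. Chrnb3 was lower with TH, at 1.21 ± 0.198 CPM against 2.08 ± 0.282 CPM in PTU, and Chrna2 overlapped between the groups. Chrna6 was at most 0.550 CPM and Chrnb4 at most 0.172 CPM in any library. Each library is a pool of sorted nuclei, so a change in the number of cells of a type and a change in the RNA of each cell cannot be told apart.

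**Figure D1:**
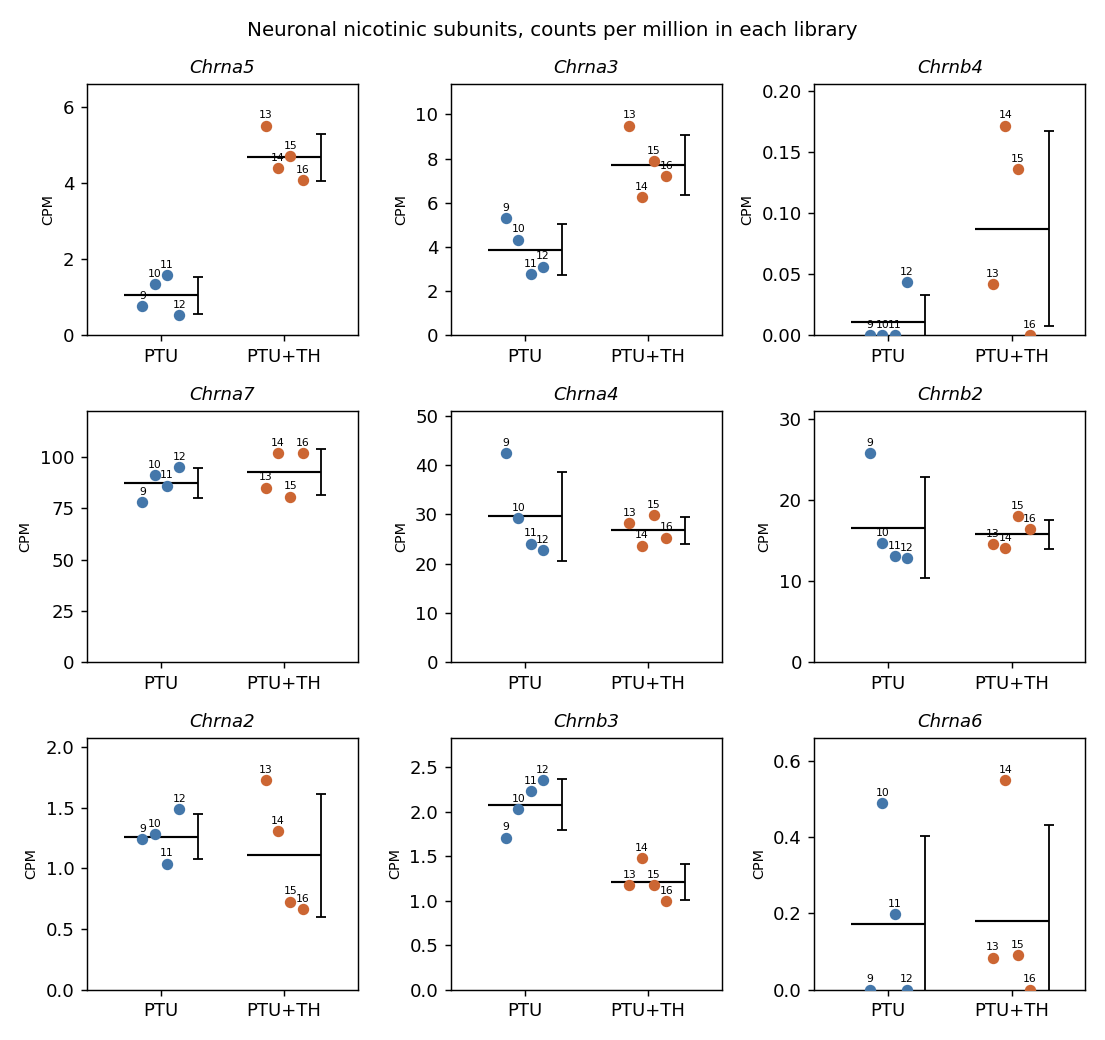
Abundance of the 9 subunits in CPM, with PTU libraries in blue and PTU+TH libraries in orange, each point labelled with its mouse number. Horizontal lines are group means and bars are SD (n = 4), drawn from 0 upward, and each panel has its own axis from 0. The 4 PTU+TH libraries lie above the 4 PTU libraries for Chrna5 and Chrna3 and below them for Chrnb3, and the groups overlap for the other 6 subunits.

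The cluster that holds Chrna5, Chrna3 and Chrnb4 lies on chromosome 9 of build GRCm38. Chrna5 (ENSMUSG00000035594.10) runs on the plus strand from 54980880 to 55007779. Chrna3 (ENSMUSG00000032303.7) runs on the minus strand from 55010111 to 55026562, so the 3′ ends of these genes face each other across 2331 bases. Chrnb4 (ENSMUSG00000035200.7) follows on the minus strand from 55028154 to 55048779, with 1591 bases between it and Chrna3.

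The promoter sequences of the cluster are shown because its members moved unequally. RefSeq sequences on GRCm38.p6, of 300 bases each and running from 250 bases before a gene's start to 50 after it, were matched for 6 of the 9 subunits by symbol. They were searched on both strands for AGGTCA, the hexamer that forms the core of thyroid hormone receptor binding elements, and matches are in capitals. Chrna5 has a pair of annotated starts, at chr9:54980630-54980929 and chr9:54981238-54981537 on the plus strand. Chrna3 is read from chr9:55026513-55026812 and Chrnb4 from chr9:55048495-55048794, both on the minus strand.
Chrna5, first start: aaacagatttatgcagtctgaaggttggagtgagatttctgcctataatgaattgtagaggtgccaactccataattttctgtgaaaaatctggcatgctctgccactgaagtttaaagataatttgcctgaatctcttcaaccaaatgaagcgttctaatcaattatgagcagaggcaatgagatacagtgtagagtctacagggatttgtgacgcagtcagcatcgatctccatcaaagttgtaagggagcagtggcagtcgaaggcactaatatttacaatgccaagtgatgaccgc
Chrna5, second start: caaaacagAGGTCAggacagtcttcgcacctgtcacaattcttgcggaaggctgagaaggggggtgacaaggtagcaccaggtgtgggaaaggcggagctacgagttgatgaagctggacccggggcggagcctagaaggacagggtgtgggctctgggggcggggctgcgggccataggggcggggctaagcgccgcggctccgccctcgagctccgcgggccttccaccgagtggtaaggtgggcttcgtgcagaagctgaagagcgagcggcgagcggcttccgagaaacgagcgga
Chrna3: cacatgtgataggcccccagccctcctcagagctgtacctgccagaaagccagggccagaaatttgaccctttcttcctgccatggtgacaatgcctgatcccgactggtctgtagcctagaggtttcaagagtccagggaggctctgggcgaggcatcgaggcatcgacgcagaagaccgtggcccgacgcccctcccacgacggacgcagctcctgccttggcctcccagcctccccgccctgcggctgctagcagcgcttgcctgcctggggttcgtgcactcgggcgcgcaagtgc
Chrnb4: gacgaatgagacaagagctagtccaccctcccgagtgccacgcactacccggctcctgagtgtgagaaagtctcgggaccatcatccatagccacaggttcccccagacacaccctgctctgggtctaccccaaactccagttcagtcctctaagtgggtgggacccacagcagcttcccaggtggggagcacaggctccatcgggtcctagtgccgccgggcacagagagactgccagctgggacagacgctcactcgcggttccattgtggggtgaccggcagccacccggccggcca

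The second Chrna5 start holds 1 match, at position 9 counted from the 5′ end of the sequence. The first Chrna5 start, Chrna3 and Chrnb4 hold 0 matches. Among the other matched subunits Chrnb2 holds 1 match, on the reverse strand at position 46, and Chrna4 and Chrna7 hold 0. Of all 32851 RefSeq promoters of this length, 5340 (16.3%) hold the hexamer on either strand, and 5 (0.0152%) hold the spaced pair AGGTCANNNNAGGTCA, which is in no promoter of the matched subunits. The first Chrna5 start is poor in G and C, at 41.3% with 5 CpG dinucleotides, and the second is rich in them, at 65.0% with 25. Chrna3 has 64.3% and 18, and Chrnb4 has 63.0% and 14, against medians of 52.7% and 7 over all promoters. These are descriptions of letters in a window, and which Chrna5 start gave the counts was not tested.

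Library totals ran from 22.0 to 25.1 M counts in the PTU group and from 21.8 to 29.1 M in the PTU+TH group. Of the GABAergic genes, Gad1 had means of 471 ± 51.7 CPM without and 422 ± 22.3 CPM with TH, and Gad2 of 427 ± 25.9 and 458 ± 24.3 CPM. The 6 pan-GABAergic markers summed to 2450 to 2880 CPM in PTU and 2290 to 2490 CPM in PTU+TH, with 0 of 5 tested called, 2 log2 fold changes positive and 3 negative. Dlx1 was listed at 0, but no base of it is free of other annotated genes, so this is no sign of absence. Of the markers tested, Dlx6os1 had no overlap between the groups, at 237 ± 29.3 and 193 ± 3.96 CPM (log2 fold change -0.30, edgeR quasi-likelihood test, adjusted p = 0.203). The excitatory neuron gene Slc17a7 was present at 15.8 to 51.4 CPM in PTU, against 23.9 to 57.9 CPM in PTU+TH. PTU mice 11 and 12 stood apart on the first principal component, which held 27.0% of the variance, with scores of 38.2 and 44.8, and PTU+TH mouse 15 lay at the other end, at -39.0. The other 5 libraries ran from -15.3 to 1.01. On the second component, with 20.6%, PTU mice 9 and 10 stood apart at 40.9 and 30.2 and the others ran from -32.8 to 1.04, so the PTU group fell into the pairs 9 and 10, and 11 and 12. PTU+TH mice 15 and 16 had 0 counts of Y-linked genes and the other 6 mice 7960 to 11548, so the sexes were not balanced between the groups. In the edgeR quasi-likelihood test over 17355 genes with Benjamini-Hochberg adjustment, 368 genes (2.12%) were called at an adjusted p under 0.05. Of these, 258 (1.49%) were higher in PTU+TH and 110 (0.634%) lower. The groups did not overlap for 1512 genes (8.71%), and the median log2 fold change over all genes tested was -0.007.

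Of the 9 subunits, 7 passed the filter on low counts. Chrna5 and Chrna3 were called higher and 0 were called lower, beside the 1.49% and 0.634% of all tested genes. The groups did not overlap for 3 subunits, 2 of them higher and 1 lower in PTU+TH, beside 8.71% of all tested genes. The median log2 fold change of the 7 was -0.08. Because the family was chosen with these values known, nothing is read from these counts, and those that passed the filter are not the whole family.

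Chrna5 encodes the accessory alpha5 subunit, known for raising the calcium permeability of the alpha4 and alpha3 receptors that it joins. Its raw counts were 21, 36, 32 and 12 in PTU mice 9 to 12 and 131, 128, 104 and 86 in PTU+TH mice 13 to 16. In CPM these were 0.765, 1.35, 1.58 and 0.525 against 5.52, 4.40, 4.72 and 4.09. Every PTU+TH library thus lay above every PTU library, and the gap between the groups, from 1.58 to 4.09 CPM, was wider than the range within either group.

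The fitted log2 fold change of Chrna5 was 2.15 ± 0.32 (SE), or 4.44-fold. Among the 258 genes called higher, whose median log2 fold change was 0.80, 14 had a larger one. It was a scarce transcript: 4575 of the genes tested (26.4%) had a lower mean. Its log2 fold change lay between 1.93 and 2.39 in the 19 other settings examined. In the 6 libraries with Y-linked counts, where only mice 13 and 14 represent PTU+TH, it was 2.23 and the gene was no longer called. Without PTU+TH mouse 15 it was 2.15.

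Chrna3 encodes the agonist-binding alpha3 subunit of the ganglionic receptor. It had 146, 115, 56 and 71 counts in PTU mice 9 to 12 and 225, 182, 174 and 151 in PTU+TH mice 13 to 16. The corresponding values were 5.32, 4.33, 2.77 and 3.11 CPM against 9.49, 6.26, 7.90 and 7.19 CPM. The groups did not overlap, but the highest PTU library, mouse 9, and the lowest PTU+TH library, mouse 14, were less than 1 CPM apart.

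The log2 fold change of Chrna3 was 0.98 ± 0.23 (SE), or 1.97-fold, and 94 of the genes called higher had a larger one. The sign was the same in the 19 other settings, with values from 0.67 to 1.40. The outer values came from leaving out either pair of PTU mice that stood apart, 0.67 without mice 11 and 12 and 1.40 without mice 9 and 10. The gene was no longer called in 11 of them. These included 7 of the 8 fits that left out 1 library, the exception being the fit without PTU mouse 9. They also included library totals as the only scaling, Y-linked counts as a covariate, the 6 libraries with such counts, and the libraries without PTU mice 11 and 12.

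Chrnb4, the beta subunit that completes the ganglionic receptor with alpha3, had counts of 0, 0, 0 and 1 in PTU mice 9 to 12, against 1, 5, 3 and 0 in PTU+TH mice 13 to 16. It did not pass the filter. A count of 0 allows up to 0.103 to 0.148 CPM in these libraries (3 counts of the total, counting error only), and 7 of the 8 Chrnb4 values, all but that of PTU+TH mouse 14, lay at or under that limit. The antisense gene Gm47877 lies wholly inside Chrnb4 and was listed at 0, which is no sign of its absence. This overlap leaves 58.1% of Chrnb4 to itself. A level of Chrnb4 matching that of Chrna3 was not seen in these nuclei in either group.

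Because these genes are neighbours, reads that run past the end of a gene could be counted to the next. The file format shows how reads were assigned only indirectly. Of 1265 protein-coding genes that lie wholly inside another gene, 1265 were listed at 0 in all 8 libraries, against 2526 of 11727 (21.5%) that share no base with another gene. This is the pattern of counting over whole gene bodies, introns included, with reads in overlaps left out. Chrna5 and Chrna3 share no base with an annotated gene.

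The difference between the group means was 3.63 CPM for Chrna5 and 3.83 CPM for Chrna3, without correction for gene length. Per kb of gene body, Chrna5 averaged 0.0393 and 0.174 CPM per kb in PTU and PTU+TH, and Chrna3 0.236 and 0.469. Per kb of exon the values were 0.338 and 1.50 for Chrna5 and 0.737 and 1.46 for Chrna3. Which gene gained more therefore depended on the length used. Chrna5 took 12.6%, 23.8%, 36.4% and 14.5% of the summed Chrna5 and Chrna3 counts in PTU mice 9 to 12 and 36.8%, 41.3%, 37.4% and 36.3% in PTU+TH mice 13 to 16. PTU mouse 11, with the lowest Chrna3 of all libraries and the highest Chrna5 of the PTU group in CPM, reached the share seen in PTU+TH mouse 16. Summed over the 4 libraries of a group, Chrna5 had 101 and then 449 counts, Chrna3 388 and then 732, and Chrnb4 1 and then 9.

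The genes on either side of the cluster had log2 fold changes near 0 and were not called. Psma4, a proteasome subunit gene that ends 22849 bases before Chrna5, had a log2 fold change of -0.05 (edgeR quasi-likelihood test, adjusted p = 0.948). Hykk and Ireb2, farther out on that side, had 0.09 (adjusted p = 0.928) and -0.03 (adjusted p = 0.939). Ube2q2, which begins 100074 bases beyond Chrnb4, had -0.01 (adjusted p = 0.992). Counts per gene hold no position within a gene, so whether reads of Chrna5 or Chrna3 spilled over into the other was not tested.

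**Figure D2:**
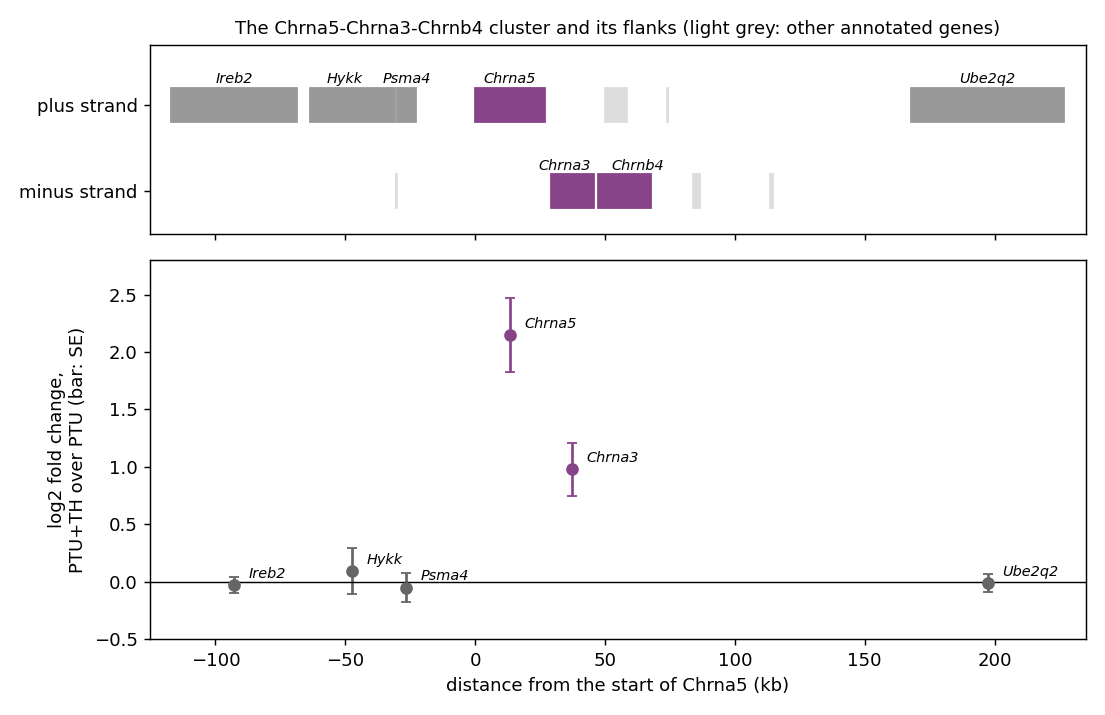
Upper panel, the genes from Ireb2 to Ube2q2 by strand, in kb from the start of Chrna5, with nicotinic genes in purple. Lower panel, log2 fold change of PTU+TH over PTU with SE for the genes tested, each at the centre of its body: Chrna5 lies at 2.15 and Chrna3 at 0.98, and the flanking genes lie between -0.05 and 0.09.

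Chrna7, Chrna4 and Chrnb2 are the subunits of the principal nicotinic receptors of the brain, the alpha7 homomer and the alpha4-beta2 heteromer. Chrna7 (chromosome 7, 63098692 to 63212569, minus strand) had 78.0, 91.1, 86.0 and 94.9 CPM in PTU mice 9 to 12 and 85.0, 102, 80.7 and 102 CPM in PTU+TH mice 13 to 16. The group means were 87.5 ± 7.32 and 92.4 ± 11.2 CPM, with a log2 fold change of 0.08 ± 0.10 (SE). The groups overlapped, and the difference was smaller than the SD of either.

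Chrna4 (chromosome 2, 181018380 to 181043546, minus strand), which binds agonist in the alpha4-beta2 receptor, had 42.5, 29.2, 24.1 and 22.8 CPM in PTU, against 28.2, 23.7, 29.9 and 25.3 CPM in PTU+TH. The means were 29.7 ± 9.00 and 26.8 ± 2.79 CPM and the log2 fold change was -0.15 ± 0.18 (SE). PTU mouse 9 was the highest library, and without it the log2 fold change was 0.08, of the opposite sign, as it was without PTU mice 9 and 10, at 0.20.

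Chrnb2 (chromosome 3, 89746195 to 89764632, minus strand), the beta partner of alpha4, also had its highest value in PTU mouse 9. It had 25.8, 14.7, 13.1 and 12.8 CPM in PTU, against 14.6, 14.1, 18.0 and 16.4 CPM in PTU+TH, with means of 16.6 ± 6.21 and 15.8 ± 1.76 CPM. The log2 fold change was -0.08 ± 0.21 (SE), 0.23 without PTU mouse 9 and 0.30 without PTU mice 9 and 10. Chrnb2 overlaps Adar, the gene of an RNA-editing enzyme on the opposite strand, by 7252 bases, which leaves 60.7% of its body free of other genes. Adar itself had a log2 fold change of -0.04 (edgeR quasi-likelihood test, adjusted p = 0.945).

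The remaining subunits were scarce. Chrnb3 (chromosome 8, 27368711 to 27399730, plus strand), an accessory subunit known with alpha6 from midbrain dopamine neurons, had 47, 54, 45 and 54 counts in PTU, against 28, 43, 26 and 21 in PTU+TH. In CPM it had 1.71, 2.03, 2.23 and 2.36 against 1.18, 1.48, 1.18 and 0.999. All 4 PTU+TH libraries lay below all 4 PTU libraries. The log2 fold change was -0.77 ± 0.27 (SE), between -0.91 and -0.63 in the 19 other settings, and it was called in 0 of them.

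Chrna2 (chromosome 14, 66135039 to 66152948, plus strand), an agonist-binding subunit known as a marker of a set of deep-layer somatostatin interneurons, had 1.24, 1.28, 1.04 and 1.49 CPM in PTU, against 1.73, 1.31, 0.727 and 0.666 CPM in PTU+TH. The means were 1.26 ± 0.184 and 1.11 ± 0.505 CPM with a log2 fold change of -0.18 ± 0.36 (SE). The PTU+TH libraries fell on both sides of the PTU libraries, with mice 15 and 16, those without Y-linked counts, the lowest. With Y-linked counts as a covariate the log2 fold change was 0.26, of the opposite sign.

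Chrna6 (chromosome 8, 27403212 to 27413944, minus strand) had 0, 13, 4 and 0 counts in PTU, against 2, 16, 2 and 0 in PTU+TH. It did not pass the filter, and mice 10 and 14, 1 of each group, held most of the counts. Chrna6 lies 3481 bases from Chrnb3. Mouse 14 was the highest and mouse 16 the lowest PTU+TH library for both genes, while in PTU mouse 10 was highest for Chrna6 and mouse 12 for Chrnb3, and no relation between them was tested.

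Levels of different subunits were compared per length, because a longer gene collects more reads. Per kb of exon, Chrna7 was highest at 20.0 CPM per kb over the 8 libraries, followed by Chrna4 at 5.62, Chrnb2 at 1.93, Chrna3 at 1.10, Chrna5 at 0.918, Chrna2 at 0.313 and Chrnb3 at 0.259 CPM per kb. Neighbours in this order were compared with a two-sided exact sign-flip permutation test over 8 libraries, whose smallest p is 0.00781, adjusted over 6 pairs. Folds between subunits are geometric means of the ratios within each library, so they differ from ratios of the mean levels. Chrna7 was 3.61-fold above Chrna4 and Chrna4 2.92-fold above Chrnb2, each in 8 of 8 libraries (exact test, adjusted p = 0.0234 for both). Chrnb2 was 1.86-fold above Chrna3 in 7 of 8 libraries (exact test, adjusted p = 0.0312). Chrna3 and Chrna5 (exact test, adjusted p = 0.141), Chrna5 and Chrna2 (exact test, adjusted p = 0.117), and Chrna2 and Chrnb3 (exact test, adjusted p = 0.141) did not differ beyond their spread over the 8 libraries. Those 8 libraries pool groups in which Chrna5 and Chrna3 stand at different levels. Chrna5 over Chrna2 had a log2 ratio of -0.10 in PTU alone and 2.46 in PTU+TH alone, where Chrna5 was higher in 4 of 4 libraries. Chrna3 over Chrna5 had 1.21 and -0.04, and Chrnb2 over Chrna3 had 1.41 and 0.37, in PTU and PTU+TH alone.

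The order depended on the length used. Per kb of the whole gene body, the length that the counting pattern above points to, Chrna4 came first at 1.12 CPM per kb, then Chrnb2 at 0.878 and Chrna7 at 0.790, whose body of 113878 bases is the longest of the family. Chrna4 was then above Chrna7 in 8 of 8 libraries, with a log2 ratio of Chrna7 over Chrna4 of -0.48 (exact permutation test, adjusted p = 0.0117). Chrna3 had a mean of 0.352 and Chrna5 of 0.107 CPM per kb, and Chrna3 was higher in 8 of 8 libraries, by a geometric mean of 4.13-fold (exact permutation test, adjusted p = 0.0117). That ratio was 6.37-fold in PTU alone and 2.68-fold in PTU+TH alone. With bases shared with other genes removed from the length, Chrnb2 led at 1.45 CPM per kb, above Chrna4 in 8 of 8 libraries (log2 ratio of Chrna4 over Chrnb2 -0.36, exact permutation test, adjusted p = 0.0117).

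Under every length Chrna7, Chrna4 and Chrnb2 were the 3 highest subunits, and Chrna6 and Chrnb4 the lowest. The place of Chrna5 changed with the group. Per kb of exon it stood at 0.338 ± 0.158 CPM per kb in PTU, level with Chrna2 at 0.333 ± 0.0485 and Chrnb3 at 0.327 ± 0.0443. In PTU+TH it stood at 1.50 ± 0.197 CPM per kb, level with Chrna3 at 1.46 ± 0.259. Per kb of gene body Chrna5 was 7th of the 9 subunits in PTU, at 0.0393 ± 0.0184 CPM per kb, and 5th in PTU+TH, at 0.174 ± 0.0229.

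**Figure D3:**
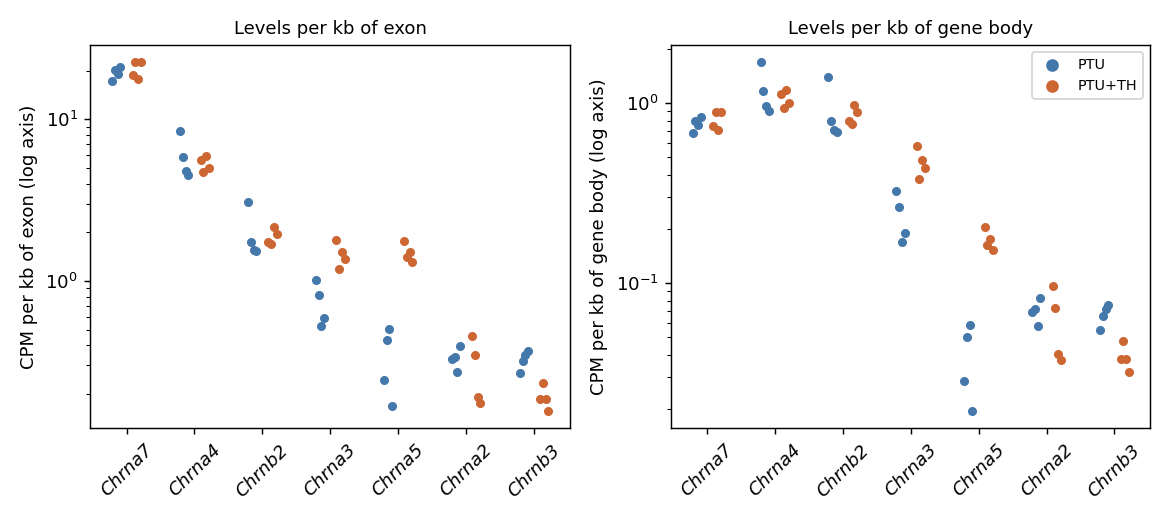
CPM per kb of exon (left) and per kb of whole gene body (right) on log axes for the 7 subunits that passed the filter, 1 point per library, PTU in blue and PTU+TH in orange. Chrna7 leads per kb of exon at a mean of 20.0 and Chrna4 per kb of gene body at 1.12, and the groups separate at Chrna5, Chrna3 and Chrnb3.

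Within groups, pairs of subunits varied from mouse to mouse in the same or in opposite directions, with 8 of 21 Pearson r positive and 13 negative. After each group's mean was removed, Chrna4 and Chrnb2, which share a receptor, had a Pearson r of 0.94 over 8 libraries (exact permutation within groups, p = 0.0156, adjusted p = 0.128 over 21 pairs) and a Spearman rho of 0.93 (exact permutation, p = 0.0104, adjusted p = 0.218). Without the libraries farthest from the middle, mice 9 and 12, r was 0.75. Chrna3 and Chrna4 had r of 0.89 (exact permutation, p = 0.0156, adjusted p = 0.128) and rho of 0.86 (exact permutation, p = 0.0312, adjusted p = 0.218), and r of 0.80 without mice 9 and 11. The neighbours Chrna5 and Chrna3 had r of -0.02 (exact permutation, p = 0.962), with 0.79 when mice 9 and 11 were left out. Pairs with opposite variation were Chrnb2 and Chrnb3, with r of -0.75 (exact permutation, p = 0.0243, adjusted p = 0.128), rho of -0.76 (exact permutation, p = 0.0295, adjusted p = 0.218) and r of -0.78 without mice 9 and 15. Chrna4 and Chrna7 had r of -0.73 (exact permutation, p = 0.0208, adjusted p = 0.128), rho of -0.69 (exact permutation, p = 0.0434, adjusted p = 0.228) and r of -0.63 without mice 9 and 12. Chrna4 and Chrnb3 had r of -0.72 (exact permutation, p = 0.0382, adjusted p = 0.160), rho of -0.69 (exact permutation, p = 0.101, adjusted p = 0.303) and r of -0.43 without mice 9 and 12. In PTU and PTU+TH alone r was 0.98 and 0.63 for Chrna4 and Chrnb2, and 0.93 and 0.78 for Chrna3 and Chrna4. It was -0.96 and -0.59 for Chrnb2 and Chrnb3, and -0.99 and -0.36 for Chrna4 and Chrnb3. Stronger in PTU+TH were Chrna4 and Chrna7, at -0.84 and -0.96, and Chrna5 and Chrna3, at -0.16 and 0.84. The permutation treats the libraries of a group as exchangeable, although the PTU mice fell into pairs. None of the 21 pairs passed after adjustment, and the libraries share depth and composition, so these are descriptions.

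The genes whose within-group variation was most like that of a subunit were picked from 11464 genes that averaged at least 5 CPM, by Pearson r over 8 libraries. For Chrna5 they were Itga5 (r = 0.948), Wdr4 (0.943) and Efcab12 (0.939). For Chrna3 they were Npc2 (0.995), Ndnf (0.986) and Armcx3 (0.982). Ndnf is a marker of neurogliaform cells of the LAMP5 class, and it stood at 43.6 ± 17.4 CPM in PTU, against 26.1 ± 4.49 CPM in PTU+TH, so it did not share the group difference of Chrna3 (log2 fold change -0.75, edgeR quasi-likelihood test, adjusted p = 0.215). Of the 6 LAMP5 class markers, 3 had negative log2 fold changes, Ndnf among them, and 3 positive ones, namely Gabrd (1.40), Npy (0.47) and Sv2c (0.03). Chrnb2 was most like Elovl4 (0.998), Cyhr1 (0.996) and Klhl23 (0.989), and Chrna4 most like Slitrk3 (0.994), 0610012G03Rik (0.988) and Gpr137b (0.986). The 3 nearest genes had r of at least 0.958 for Chrna7 (Rabepk, Pxk and Casc4), 0.988 for Chrna2 (Ccdc17, Cpsf1 and Med12) and 0.966 for Chrnb3 (Pnpla6, Pcbp2 and Ercc3). These genes were picked for high r among many over 8 libraries, so the values are a description only.

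Markers of cells that could carry these subunits were read beside them. The 5 genes chosen for the medial habenula and midbrain dopamine neurons summed to 8.83 to 19.1 CPM in PTU, against 20.8 to 25.6 CPM in PTU+TH. Of this sum 78.7% to 94.3% was Th, the rate-limiting enzyme of catecholamine synthesis, which some cortical interneurons also express, at 12.0 ± 4.35 and 20.3 ± 2.45 CPM (log2 fold change 0.75, edgeR quasi-likelihood test, adjusted p = 0.133). The habenular factor Pou4f1 was at most 0.211 CPM and the dopamine transporter gene Slc6a3 at most 0.437 CPM in any library. The habenular receptor Gpr151 stood at 0.890 ± 0.355 and 0.602 ± 0.165 CPM (log2 fold change -0.55, edgeR quasi-likelihood test, adjusted p = 0.671). Ddc stood at 1.18 ± 0.416 and 1.31 ± 0.763 CPM (0.13, adjusted p = 0.961, edgeR). The part of this list in the Chrna5 and Chrna3 values was not tested.

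Among classes of GABAergic neuron, the 7 VIP class markers summed to 246 to 381 CPM in PTU, against 233 to 251 CPM in PTU+TH, with 0 members called higher and 1 called lower. That member, Htr3a, encodes the serotonin-gated channel of the same protein superfamily and stood at 7.82 ± 2.38 and 3.63 ± 0.895 CPM (log2 fold change -1.11, edgeR quasi-likelihood test, adjusted p = 0.0344). Its call was lost in 9 of 19 other settings, among them 5 of the 8 fits that left out 1 library. The 6 PV class markers summed to 227 to 317 and 290 to 383 CPM, with Syt2 and Nefh, 2 of 5 tested, called higher. Cox6a2 was listed at 0, but no base of it is free of other genes, so this is no sign of absence. The largest member was Kcnc1, at 193 ± 26.7 and 244 ± 29.9 CPM (log2 fold change 0.34, adjusted p = 0.228, edgeR). Pvalb stood at 1.80 ± 0.843 and 2.54 ± 0.564 CPM (0.50, adjusted p = 0.629, edgeR) and Tac1 at 56.9 ± 13.0 and 53.7 ± 6.69 CPM (-0.08, adjusted p = 0.910, edgeR). The Syt2 call was lost in 2 of 19 other settings, and the Nefh call in 7 of 19, among them 3 fits that left out 1 library. The 6 LAMP5 class markers summed to 1270 to 1390 and 1150 to 1320 CPM, with Reln the largest member and 1 called higher. That gene, Gabrd, stood at 37.1 ± 5.22 and 97.9 ± 6.63 CPM (log2 fold change 1.40, adjusted p = 1.67e-05, edgeR). The Gabrd call was kept in 19 of 19 other settings. The 7 SST class markers summed to 1360 to 1820 and 1140 to 1510 CPM, with Grin3a the largest member and 1 called lower. That gene, Calb1, stood at 198 ± 22.7 and 120 ± 12.3 CPM (log2 fold change -0.73, adjusted p = 0.00328, edgeR). The Calb1 call was kept in 18 of 19 other settings. The 6 excitatory markers summed to 36.4 to 104 and 44.5 to 118 CPM, with 0 called. These calls stand beside 1.49% higher and 0.634% lower over all genes tested. The lists were chosen with earlier results of these data known, so their calls are no independent evidence about cell classes. The part of these lists in the subunits' values was not tested.

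The 33 partner genes of the receptors were read from the same fit, and 24 of them passed the filter. Of these, 2 were called higher and 1 lower, beside 1.49% and 0.634% of all genes tested. The 7 nicotinic subunits of muscle and sensory hair cells had 2 members tested and 0 called. Chrnb1, the beta subunit of the muscle receptor, stood at 7.16 ± 1.03 and 7.50 ± 0.828 CPM (log2 fold change 0.07, edgeR quasi-likelihood test, adjusted p = 0.940), and Chrna1 at 0.442 ± 0.172 and 0.542 ± 0.169 CPM (0.30, adjusted p = 0.879).

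Of 13 genes for receptor assembly and for the prototoxins, small Ly6 proteins that bind nicotinic receptors, 11 were tested. The edgeR fit called 2 of them higher and 0 lower, beside 1.49% and 0.634% of all genes tested. Of their log2 fold changes 8 were positive and 3 negative, with a median of 0.06. Lynx1, the membrane-bound prototoxin known for damping nicotinic receptors in the cortex, had 34.9, 24.1, 23.1 and 22.9 CPM in PTU, against 44.0, 45.1, 65.0 and 50.2 CPM in PTU+TH. It rose from 26.3 ± 5.79 to 51.0 ± 9.66 CPM, higher in 4 of 4 libraries, with a log2 fold change of 0.96 ± 0.16 (SE; edgeR quasi-likelihood test, adjusted p = 0.00752). Its call was kept in 16 of 19 other settings and lost in the 6 libraries with Y-linked counts (0.76), with such counts as a covariate (0.76) and without PTU mice 11 and 12 (0.78).

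Ly6e, a related Ly6 protein, had 34.2, 34.0, 25.7 and 21.6 CPM in PTU, against 54.7, 48.2, 60.6 and 53.7 CPM in PTU+TH. It rose from 28.9 ± 6.24 to 54.3 ± 5.06 CPM, also in 4 of 4 libraries, with a log2 fold change of 0.91 ± 0.14 (SE; edgeR quasi-likelihood test, adjusted p = 0.00451). Its call was lost in the 6 libraries with Y-linked counts and with the covariate, at 0.83 in each. Both genes lie on chromosome 15, Lynx1 from 74747852 to 74753046 and Ly6e from 74955051 to 74959905. Ly6h, another prototoxin of that chromosome, known to lower alpha7 at the cell surface, stood at 185 ± 13.5 and 150 ± 10.1 CPM. Its groups did not overlap either, with PTU+TH below, as was so for 8.71% of all genes tested in either direction. It was not called (log2 fold change -0.30, edgeR quasi-likelihood test, adjusted p = 0.136). DESeq2 called it lower (adjusted p = 0.0359), and over the 19 other settings the adjusted p of the fits ran from 0.0359 to 0.663.

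The other abundant members of that list differed by less than the spread between libraries. Vsnl1, a calcium sensor that binds the alpha4 subunit, stood at 287 ± 54.2 and 307 ± 66.5 CPM (log2 fold change 0.10, adjusted p = 0.901, edgeR). Lypd6 stood at 117 ± 17.1 and 114 ± 20.7 CPM (-0.05, adjusted p = 0.950, edgeR). Of the alpha7 chaperones, chosen for naming after their values were seen, Ric3 had a log2 fold change of 0.06 and Tmem35a of 0.18, and neither was called, though Tmem35a was without PTU mice 9 and 10.

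Of 8 genes for acetylcholine synthesis, transport and breakdown, 7 were tested. The edgeR fit called 0 of them higher and 1 lower, beside 1.49% and 0.634% of all genes tested. Of their log2 fold changes 4 were positive and 3 negative, with a median of 0.04. Colq, the collagen tail that anchors acetylcholinesterase, had 2.48, 2.67, 1.68 and 1.31 CPM in PTU, against 0.928, 0.584, 0.818 and 0.571 CPM in PTU+TH. It fell from 2.04 ± 0.645 to 0.725 ± 0.176 CPM, lower in 4 of 4 libraries (log2 fold change -1.49 ± 0.34 SE, edgeR quasi-likelihood test, adjusted p = 0.0407). Its call was kept in 7 of 19 other settings and in 1 of the 8 fits that left out 1 library, and 43.2% of its body is free of other genes.

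Acetylcholinesterase itself, Ache, stood at 70.8 ± 16.3 and 72.8 ± 4.62 CPM (log2 fold change 0.04, adjusted p = 0.961, edgeR). Bche stood at 43.9 ± 12.1 and 34.7 ± 6.88 CPM (-0.34, adjusted p = 0.519, edgeR), and Slc44a1, a choline transporter, at 157 ± 5.36 and 172 ± 6.30 CPM (0.13, adjusted p = 0.584, edgeR). Chat, the enzyme that makes acetylcholine and that marks a subset of VIP interneurons, was named after its values were seen, at 2.15 ± 0.965 and 4.20 ± 0.748 CPM (0.97, adjusted p = 0.131, edgeR). It was called without PTU mice 11 and 12, without PTU mouse 12, and by DESeq2. Slc5a7, the choline transporter of cholinergic terminals, also named after its values were seen, had a negative log2 fold change, at 6.43 ± 0.516 and 4.60 ± 0.859 CPM (-0.48, adjusted p = 0.281, edgeR). All its PTU+TH libraries lay below all its PTU libraries, and the groups did not overlap for 8.71% of all genes tested. Slc18a3, the vesicular acetylcholine transporter gene, lies inside Chat and was listed at 0, which in these files is no sign of absence.

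Of the 5 muscarinic receptor genes, the G protein-coupled acetylcholine receptors, 4 were tested and 0 were called, with a median log2 fold change of 0.58. Chrm2 had 38.8, 49.4, 64.3 and 65.4 CPM in PTU, against 70.2, 78.3, 84.7 and 101 CPM in PTU+TH (log2 fold change 0.62, edgeR quasi-likelihood test, adjusted p = 0.0844). Its groups did not overlap, as was so for 8.71% of all genes tested. Chrm3 stood at 484 ± 143 and 699 ± 131 CPM (0.53, adjusted p = 0.278, edgeR) and Chrm1 at 49.1 ± 12.4 and 45.1 ± 3.71 CPM (-0.12, adjusted p = 0.840, edgeR). Chrm5 did not pass the filter, with 15, 5, 14 and 10 counts in PTU, against 1, 1, 0 and 0 in PTU+TH. Tested without the filter, it had a log2 fold change of -4.19, which depends on the prior count, and an adjusted p of 0.0198 (edgeR), and it was named after its counts were seen.

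**Figure D4:**
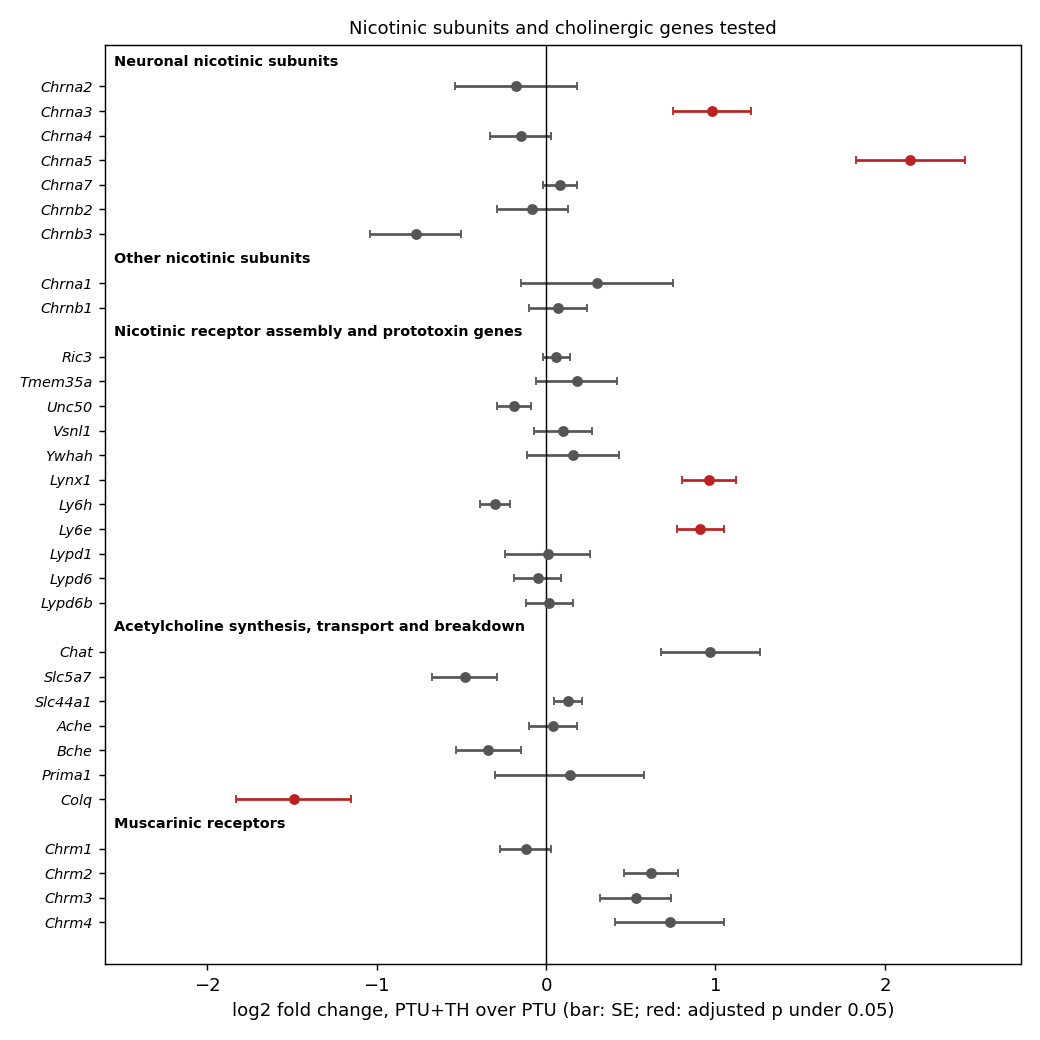
Log2 fold change of PTU+TH over PTU with SE for the 7 nicotinic subunits and 24 partner genes that passed the filter, grouped by list, with genes at an adjusted p under 0.05 in red. Chrna5, Chrna3, Lynx1 and Ly6e lie to the right of 0 and Colq to the left, and the members of the family are shown as a description.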

How the data were processed

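RNA was measured in 8 libraries, 1 per mouse. The authors deposited 1 file of raw read counts by gene for each library. The submitters' processing notes name Bowtie2 2.5.3 and the builds mm10 and GRCm38. The counting program, annotation, use of strand and handling of introns are not given in the sources used here. All 55341 symbols matched GENCODE M21 on GRCm38, which gave positions and lengths.

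Counts were fitted with edgeR 4.0.16 in R 4.3.3 (filterByExpr, TMM scaling, robust quasi-likelihood, group as the only term), and p-values were adjusted by Benjamini-Hochberg over 17355 genes. CPM were computed after TMM scaling. The chi-square statistic per degree of freedom of library pairs within a group was 8.38 to 72.6 in 12 pairs, more than counting noise gives, so none was treated as a duplicate deposit. This says nothing on the independence of the mice, and p-values measure the spread between these mice, whose litters are not stated. Fits were tested on simulated data. Alternatives covered scaling, filter, DESeq2 1.42.0, limma 3.58.1 voom, Y-linked counts, threshold, gene length and left-out libraries. Leaving out PTU mice 11 and 12 or 9 and 10, and the length free of other genes, were added after seeing the data. The subunits and lists were chosen with earlier results of these data known. Named partner genes were those called or the 3 with the highest mean CPM in each list, and exceptions are marked. The order by exon length was set as the first choice, and the body length is given beside it because of the counting pattern. Proteins, and promoters of the 3 unmatched subunits, were not used here.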

Additional observations from a re-analysis of the deposited data

Results flagged for a closer look

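Among 44 sets of 4 libraries, 5 held a single library far from the other 3. The sets came from the 7 subunits that passed the filter, the overlapping neighbour Adar and the named partner genes, in both groups. Partner genes named after their values were seen were not included. For independent sets chance gives about 1 in 20, or 2.2 sets, but these share 8 libraries, so no excess is read from them. Of the 5 sets, 3 concerned PTU mouse 9. Chrnb2 stood at 25.8 CPM in that mouse and at 12.8 to 14.7 CPM in the other PTU libraries. Lynx1 stood there at 34.9 CPM against 22.9 to 24.1 CPM, toward the PTU+TH level, and the choline transporter Slc44a1 at 149 CPM against 160 to 161 CPM. In PTU+TH, Chrnb1 stood at 6.26 CPM in mouse 14 against 7.88 to 7.95 CPM, and Chrm1 at 39.5 CPM in mouse 16 against 46.6 to 47.4 CPM. The cause was not tested.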

How the results depend on the processing

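Over the 19 alternatives, Chrna3, Chrna5, Chrna7 and Chrnb3 kept the sign of their log2 fold change. The count of called genes, 368 (70.1% higher), was 58 in the 6 libraries with Y-linked counts (89.7% higher), 129 with those counts as a covariate (82.2%), 721 by DESeq2, which took all 28657 genes with a count and its own filter (61.2%), 601 at an adjusted p under 0.1 (63.7%), and 1029 without PTU mice 9 and 10 (62.8%). Leaving out 1 library gave 182 (without PTU+TH mouse 15) to 499 (without PTU mouse 9). Under library totals it was 256, and scaling moved the median log2 fold change of all genes by at most 0.0214.

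The 2 called assembly and prototoxin genes were 0 in the 6 libraries with Y-linked counts and with the covariate, 1 without PTU mice 11 and 12, 3 by DESeq2, with Ly6h, and 4 without PTU mice 9 and 10, with Tmem35a and Ywhah. The 1 called acetylcholine gene was 0 under library totals, in those 6 libraries, with the covariate and by voom, 2 without PTU mice 11 and 12 and by DESeq2, and 0 to 2 with 1 library left out. Without PTU mice 9 and 10 it was Bche in place of Colq. The 0 called muscarinic genes were 1 under library totals, without a filter and by DESeq2, 2 without PTU mice 11 and 12, and 0 to 1 with 1 library left out.

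Signs reversed for genes near 0. In the 6 libraries with Y-linked counts and with the covariate, Chrna2 was 0.26 in both, Chrnb1 -0.02 in both, Vsnl1 -0.16 and -0.17, and Ache -0.02 in both. Without PTU mice 11 and 12, Lypd6 was 0.08, Ache -0.16 and Adar 0.13. Without PTU mice 9 and 10, Chrna4 was 0.20, Chrnb2 0.30, Chrnb1 -0.07, Vsnl1 -0.11 and Chrm1 0.22. With 1 library left out, Chrna4 ran from -0.26 to 0.08, Chrnb2 from -0.18 to 0.23, Vsnl1 from -0.05 to 0.19, Lypd6 from -0.16 to 0.06, Ache from -0.08 to 0.20, Chrm1 from -0.23 to 0.04 and Adar from -0.10 to 0.04.

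Among log2 ratios of level per kb, Chrna7 over Chrna4 went from 1.85 to -0.48 by gene body and -0.46 by the free body. Chrna4 over Chrnb2 went from 1.55 to -0.36 by the free body. Chrna3 over Chrna5 went from 0.58 to 2.05 by either body length and to -0.04 in PTU+TH alone, and Chrna5 over Chrna2 from 1.18 to -0.10 in PTU alone and 2.46 in PTU+TH alone. Apart from the changed lengths, filters and numbers of libraries, the cause was not tested. No paired analysis was possible because PTU and PTU+TH mice share no number. With 12 to 146 counts per PTU library, depth limits Chrna5 and Chrna3. The upper limits for a count of 0 cover counting error only, whereas SD and SE include the spread between mice.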
